A study of Danio rerio with 9 samples.

Results

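Expression of 10 polyamine metabolism genes was examined in skeletal muscle from 3 groups of zebrafish, namely WT, untrained knockout (*bves* KO) and exercise-trained knockout (*bves* KO-EX) fish. The genes are *smox*, *sat1b*, *odc1*, *amd1*, *srm*, *sms*, *azin1a*, *azin1b*, *oaz1a* and *oaz1b*, and they were taken by symbol from the 32520 genes listed. All 10 passed the filter on low counts, among 14849 genes that did. The set was selected on the high level of *smox* in *bves* KO-EX, which was known before. That level is therefore given as a description with no test, and all counts and tests are of the other 9 genes, asking whether they move with it. The members were also chosen with earlier results of these data known.

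Polyamines (putrescine, spermidine and spermine) are small cations that bind RNA, DNA and membranes and are needed for growth and translation. Ornithine decarboxylase, encoded by *odc1*, makes putrescine from ornithine. Spermidine synthase (*srm*) and spermine synthase (*sms*) then add aminopropyl groups, which come from the product of S-adenosylmethionine decarboxylase (*amd1*). Back-conversion runs through spermine oxidase (*smox*), which turns spermine into spermidine and releases hydrogen peroxide, and through the acetyltransferase SAT1 (*sat1b* is a zebrafish copy), which marks polyamines for oxidation or export. Antizymes (*oaz1a*, *oaz1b*) bind ornithine decarboxylase and send it to the proteasome, and antizyme inhibitors (*azin1a*, *azin1b*) release it. In mammals much of this control acts on translation and protein turnover, which RNA levels do not report. Spermine oxidase is known in mouse muscle as a gene whose expression falls during atrophy and which helps to maintain fibre size.

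The fish were males, 12 months old when selected. WT fish were of the AB strain, and the background of the edited fish is not named in the methods. *bves* KO fish carried a CRISPR/Cas9 edit made with 2 sgRNAs to exon 2. The study made 3 frameshift lines, and its methods do not say which of them was sequenced. *bves* KO-EX fish were labelled as the same knockout and had swum for 8 weeks in sessions of 1.5 h, 3 days on and 1 day off, at a flow speed of 10 and later 16 cm/s. WT and *bves* KO fish were not trained, and no trained WT group was sequenced, so training was compared within the knockout only. Each group had 3 libraries, each from muscle of 2 fish. The 3 comparisons share libraries with each other and are not independent.

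Estimated counts summed to 17422188 to 18860779 per library, and the 13 mitochondrial genes took 11.8% to 23.4% of them, most in *bves* KO-EX replicate 1. CPM values below are counts divided by the TMM-scaled library size. WT replicate 2 stood apart with the lowest scaling factor, 0.763, against 0.93 to 1.17 in the other 8 libraries. All 10 skeletal muscle markers were detected, and their summed levels overlapped between WT and the other groups only through WT replicate 2. The sums were 124300, 215200 and 129800 CPM in WT, 157000 to 176400 CPM in *bves* KO and 146300 to 169900 CPM in *bves* KO-EX. Summed slow muscle markers had 4457, 1744 and 6731 CPM in WT, 3151 to 3923 CPM in *bves* KO and 2449 to 3912 CPM in *bves* KO-EX. The targeted gene *bves* (ENSDARG00000058548) had 39.5, 57.2 and 43.8 CPM in WT and 7.94, 17.5 and 6.70 CPM in *bves* KO. The libraries labelled *bves* KO-EX had 47.4, 11.4 and 49.6 CPM, so that replicates 1 and 3 were at WT levels and only replicate 2 was in the *bves* KO range. Gene counts do not settle the genotype of these libraries. Differences of polyamine genes from them that passed a test, or that stand out below, are also given with replicate 2 alone. Those of cell type markers are not.

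*smox* (ENSDARG00000036967) was the member with the highest level in *bves* KO-EX relative to WT. Its level was 17.4, 21.3 and 17.4 CPM in WT, 54.8, 44.6 and 61.2 CPM in *bves* KO and 81.8, 76.8 and 82.3 CPM in the libraries labelled *bves* KO-EX. No group overlapped another, and the untrained knockout already lay well above WT. The means were 18.7 ± 2.28, 53.5 ± 8.37 and 80.3 ± 3.06 CPM (SD, n = 3), which is 2.87-fold above WT in *bves* KO and 4.30-fold in *bves* KO-EX. The fitted log2 fold change was 1.52 (SE 0.191) for *bves* KO against WT, 2.10 (SE 0.194) for *bves* KO-EX against WT and 0.58 (SE 0.186) for *bves* KO-EX against *bves* KO. *bves* KO-EX replicate 2, the library with a low *bves* level, had nearly the same *smox* level as replicates 1 and 3. Without replicates 1 and 3 the log2 fold changes were 2.02 (SE 0.270) against WT and 0.50 (SE 0.284) against *bves* KO. In RNA from whole muscle, a change in the number of cells of a type and a change in RNA per cell cannot be told apart.

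*sat1b* (ENSDARG00000032272), the other catabolic member, was low in every library. Its level was 2.01, 2.11 and 2.23 CPM in WT, 2.79, 1.61 and 2.02 CPM in *bves* KO and 7.45, 2.63 and 6.09 CPM in *bves* KO-EX. Replicates 1 and 3 of *bves* KO-EX were high, while replicate 2 lay within the *bves* KO range, a split that *smox* did not have. The mean in *bves* KO-EX was 5.39 ± 2.49 CPM (SD, n = 3), from 134, 56 and 112 counts. Against WT the log2 fold change was 1.34 (SE 0.366), with an edgeR adjusted p of 0.0574, and the groups did not overlap. Against *bves* KO it was 1.32 (SE 0.364, edgeR adjusted p = 0.102), with overlapping groups. Neither passed the threshold of an adjusted p under 0.05, whereas DESeq2 gave adjusted p-values of 0.0193 and 0.0381. Of 18 alternatives, *sat1b* passed in 4 against WT and in 2 against *bves* KO. Those against WT include edgeR with no low-count filter and with at least 10 counts in every library. Without replicates 1 and 3 the 2 log2 fold changes were 0.29 and 0.28 (edgeR adjusted p = 0.762 and 0.859), and without replicate 2 they were 1.68 and 1.65 (edgeR adjusted p = 0.0190 and 0.0358). The summed level of 7 erythrocyte markers had the same split in *bves* KO-EX, at 892, 501 and 782 CPM, against 340 to 692 CPM in WT and 432 to 668 CPM in *bves* KO. Within the other groups the order differed. *bves* KO replicate 2 had the highest marker sum of its group (668 CPM) and the lowest *sat1b* level (1.61 CPM). WT replicate 2 had the highest marker sum of WT (692 CPM) and the middle *sat1b* level (2.11 CPM). None of the erythrocyte markers was at 0. In *bves* KO-EX 1 of them (*slc4a1a*) passed against WT and none against *bves* KO, beside 5.39% and 1.64% of all genes called. Their part in the *sat1b* result was not tested. In *bves* KO against WT, the log2 difference of *sat1b* was 0.02 (SE 0.374, 95% interval −0.81 to 0.84, edgeR adjusted p = 0.987).

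**Figure D1:**
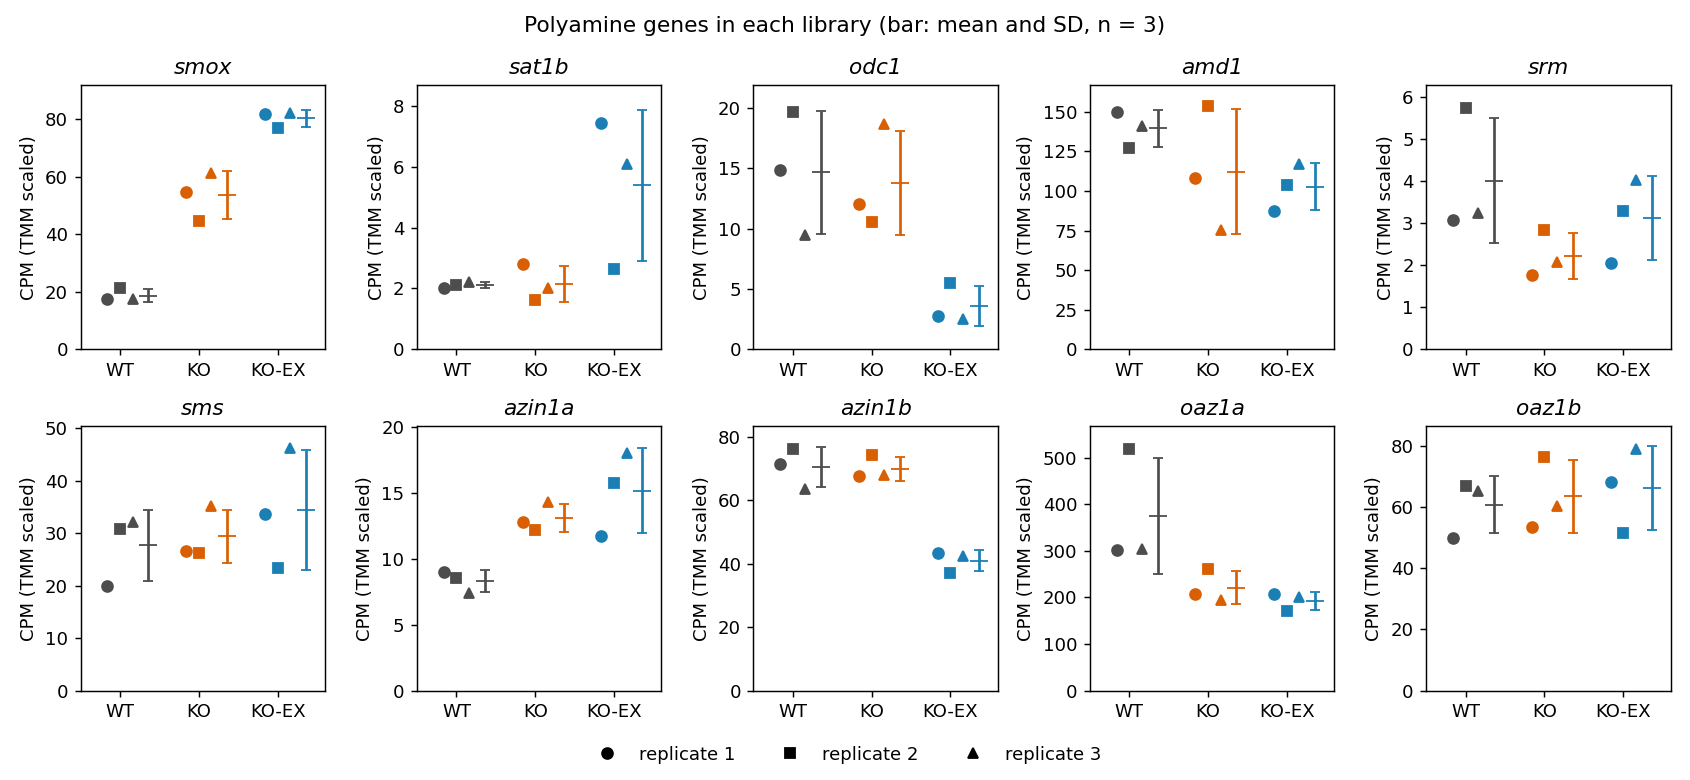
Level of each polyamine gene in every library, in CPM after TMM scaling on an axis that starts at 0, by group. Symbols are the replicates and the bar beside each group is its mean and SD (n = 3). *smox* stands at 17.4 to 21.3, 44.6 to 61.2 and 76.8 to 82.3 CPM, and *odc1* in *bves* KO-EX stands at 2.50 to 5.53 CPM, under all other libraries.

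*odc1* (ENSDARG00000007377), which encodes the enzyme of the first step of synthesis, went the opposite way to *smox* in *bves* KO-EX. It had 14.9, 19.7 and 9.47 CPM in WT and 12.1, 10.6 and 18.7 CPM in *bves* KO, so these 2 groups overlapped fully. In *bves* KO-EX it had 2.78, 5.53 and 2.50 CPM, from 50, 118 and 46 counts, all below every other library. The means were 14.7 ± 5.10, 13.8 ± 4.32 and 3.60 ± 1.68 CPM (SD, n = 3). *odc1* fell by 2.01 on the log2 scale in *bves* KO-EX against WT (SE 0.374, edgeR adjusted p = 0.0188) and by 1.92 against *bves* KO (SE 0.373, edgeR adjusted p = 0.0340). Between *bves* KO and WT the log2 fold change was −0.09 (SE 0.352, 95% interval −0.86 to 0.69, edgeR adjusted p = 0.929), the range that 3 libraries a group leave. *bves* KO-EX replicates 1 and 3 had the lowest levels, and without both the differences were −1.42 (SE 0.478, edgeR adjusted p = 0.212) against WT and −1.33 (SE 0.476, edgeR adjusted p = 0.348) against *bves* KO. With single libraries left out the direction held in all 9 fits of each comparison. Over all genes, 801 passed against WT and 243 against *bves* KO with all 9 libraries. In the leave-out fits these counts ran from 166 (without *bves* KO-EX replicate 3) to 1135 (without WT replicate 3) against WT. Against *bves* KO they ran from 20 (without *bves* KO replicate 1) to 255 (without WT replicate 2). The call against WT was lost without WT replicate 1 (edgeR adjusted p = 0.0577), WT replicate 2 (0.0562), *bves* KO-EX replicate 1 (0.0662) or replicate 3 (0.0717). The call against *bves* KO was lost without WT replicate 1 (0.0578), *bves* KO replicate 1 (0.109), *bves* KO replicate 3 (0.136), *bves* KO-EX replicate 1 (0.114) or replicate 3 (0.125). Over all alternatives the edgeR, DESeq2 or limma adjusted p ran from 3.21e-05 to 0.212 against WT and from 0.000133 to 0.348 against *bves* KO.

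The other 3 synthesis genes passed in none of the comparisons. *amd1* (ENSDARG00000043856) had 150, 127 and 141 CPM in WT, 108, 154 and 75.4 CPM in *bves* KO and 87.6, 104 and 117 CPM in *bves* KO-EX. In CPM its *bves* KO-EX libraries all lay under WT, at a log2 difference of −0.44 (SE 0.264, edgeR adjusted p = 0.325, −0.45 with replicate 2 alone), and the *bves* KO libraries spread over both ranges. In TPM the WT and *bves* KO-EX groups of *amd1* overlapped (18.07 to 38.15 and 16.39 to 24.15 TPM). *srm* (ENSDARG00000055760) had 3.07, 5.72 and 3.24 CPM in WT, 1.77, 2.83 and 2.07 CPM in *bves* KO and 2.06, 3.28 and 4.02 CPM in *bves* KO-EX. Every *bves* KO library was below WT, at a log2 difference of −0.84 (SE 0.342, edgeR adjusted p = 0.246), while *bves* KO-EX overlapped both other groups. *sms* (ENSDARG00000008155) had 20, 30.9 and 32.2 CPM in WT, 26.7, 26.3 and 35.2 CPM in *bves* KO and 33.6, 23.4 and 46.3 CPM in *bves* KO-EX, with overlap throughout. Its log2 fold change against WT was 0.09 in *bves* KO (SE 0.273, 95% interval −0.51 to 0.69, edgeR adjusted p = 0.900) and 0.31 in *bves* KO-EX (SE 0.273, 95% interval −0.28 to 0.91, edgeR adjusted p = 0.501). The product of *sms* is the spermine that spermine oxidase consumes.

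The antizyme inhibitor genes differed in direction. *azin1a* (ENSDARG00000052789) had 9.02, 8.59 and 7.39 CPM in WT, 12.8, 12.2 and 14.3 CPM in *bves* KO and 11.7, 15.8 and 18.0 CPM in *bves* KO-EX, so both knockout groups lay above WT and overlapped each other. It rose in *bves* KO-EX against WT by 0.87 on the log2 scale (SE 0.199, edgeR adjusted p = 0.0342). In *bves* KO against WT the log2 fold change was 0.66 (SE 0.199), which did not pass (edgeR adjusted p = 0.135). *azin1b* (ENSDARG00000035869), the more abundant copy, had 71.4, 76.1 and 63.6 CPM in WT, 67.6, 74.2 and 67.9 CPM in *bves* KO and 43.4, 37.1 and 42.4 CPM in *bves* KO-EX. WT and *bves* KO overlapped, and every *bves* KO-EX library was lower than both. *azin1b* fell by 0.78 on the log2 scale against WT (SE 0.175, edgeR adjusted p = 0.0313). The difference from *bves* KO was as large, −0.77 (SE 0.175), with an edgeR adjusted p of 0.0545 (0.0497 without WT replicate 2), while DESeq2 gave 8.35e-05. With replicate 2 alone it was −0.93 (SE 0.290, edgeR adjusted p = 0.287). On the level per gene length, the share of *azin1a* in the sum of both genes was 8.15 ± 1.84% for WT, 8.75 ± 0.455% for *bves* KO and 18.0 ± 3.63% for *bves* KO-EX (SD, n = 3). The similar share in WT and *bves* KO rests on TPM. There *azin1a* in *bves* KO (2.53 to 2.91 TPM) lay within the WT range (1.61 to 3.39 TPM), whereas in CPM it lay above WT.

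Both calls depended on single libraries, and the count of calls over all genes changed with them too. Over all genes 801 passed in *bves* KO-EX against WT with all 9 libraries, and 166 to 1135 with 1 library left out. For *azin1a* in *bves* KO-EX against WT, the edgeR adjusted p was above 0.05 without WT replicate 1 (0.0809), WT replicate 2 (0.0708), WT replicate 3 (0.0610), *bves* KO replicate 1 (0.0631), *bves* KO replicate 3 (0.0509), *bves* KO-EX replicate 2 (0.0727) or *bves* KO-EX replicate 3 (0.124). For *azin1b* it was above 0.05 without WT replicate 1 (0.0810), WT replicate 2 (0.0697), *bves* KO replicate 1 (0.0616), *bves* KO replicate 3 (0.0517), or *bves* KO-EX replicate 1 (0.0759), 2 (0.0747) or 3 (0.0989). The fold changes themselves moved little, from 0.72 to 1.03 for *azin1a* and from −0.85 to −0.71 for *azin1b* on the log2 scale. With *bves* KO-EX replicate 2 alone they were 0.90 (SE 0.258, edgeR adjusted p = 0.166) and −0.94 (SE 0.290, edgeR adjusted p = 0.181). In TPM the *azin1a* groups overlapped, since WT replicate 1 reached 3.39 TPM against 2.54 TPM in *bves* KO-EX replicate 1, and limma on TPM gave an adjusted p of 0.281. The 2 copies are paralogs, as are the *oaz1* and *sat1* copies, and reads shared between copies could have been split by the counting.

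The antizyme genes passed in no comparison. *oaz1a* (ENSDARG00000071403) had 302, 518 and 304 CPM in WT, 208, 260 and 195 CPM in *bves* KO and 207, 171 and 200 CPM in *bves* KO-EX. All 6 libraries labelled knockout lay under WT, and WT replicate 2 was far above the rest. The log2 fold change was −0.76 in *bves* KO (SE 0.268, edgeR adjusted p = 0.190) and −0.96 in *bves* KO-EX (SE 0.269, edgeR adjusted p = 0.0623, DESeq2 adjusted p = 0.00424) against WT, and the latter passed edgeR without WT replicate 3 (adjusted p = 0.0432). With *bves* KO-EX replicate 2 alone it was −1.15 (SE 0.439, edgeR adjusted p = 0.251). In TPM, where WT replicate 2 did not stand out, WT libraries had 345, 350 and 312.5 TPM of *oaz1a*, *bves* KO libraries 215, 244 and 201 TPM and *bves* KO-EX libraries 192, 199 and 200.5 TPM. *oaz1b* (ENSDARG00000104782) had 50.0, 67.0 and 65.2 CPM in WT, 53.5, 76.5 and 60.4 CPM in *bves* KO and 68.3, 51.5 and 78.8 CPM in *bves* KO-EX, with all groups overlapping. Against WT its log2 fold change was 0.06 for *bves* KO and 0.13 for *bves* KO-EX (SE 0.228 for both, edgeR adjusted p = 0.916 and 0.769).

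**Figure D2:**
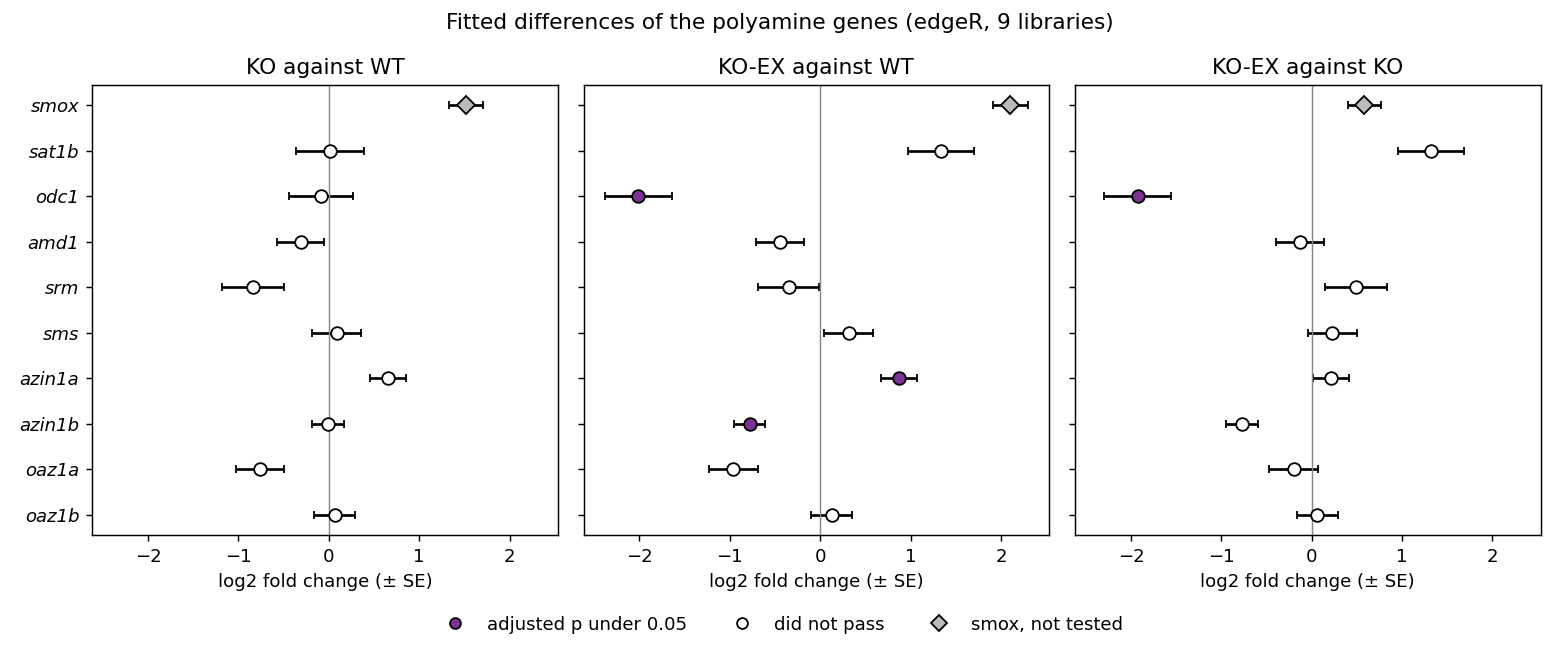
Fitted log2 fold change of each gene in the 3 comparisons, with its SE as the bar, from edgeR on all 9 libraries. Filled circles passed an adjusted p under 0.05, open circles did not, and the grey diamond is *smox*, which was not tested. *odc1* lies at −2.01 and −1.92 where *smox* lies at 2.10 and 0.58, and in *bves* KO against WT no tested gene is filled.

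Counted over the 9 genes, the rest of the pathway did not move with *smox* in one direction. In *bves* KO against WT, where *smox* was already 2.87-fold higher, 0 of 9 passed edgeR, beside 1.11% of all tested genes (0.754% up, 0.357% down), 3 of 9 had an unadjusted p under 0.05, beside 16.9% of all, and DESeq2 (4.77% of all genes called) and limma also called 0. The groups of 3 of the 9 did not overlap in CPM (*srm*, *azin1a*, *oaz1a*), beside 21.4% of all genes, and those of *azin1a* overlapped in TPM. In *bves* KO-EX against WT, 1 rose (*azin1a*) and 2 fell (*odc1*, *azin1b*), beside 5.39% of all tested genes called, where 3.06% rose and 2.34% fell. There 5 of 9 had an unadjusted p under 0.05, beside 25.1% of all, and 5 of 9 passed DESeq2, beside 11.8% of all. In CPM 6 of 9 had groups that did not overlap, beside 28.0% of all. Of these, *amd1* and *azin1a* overlapped in TPM, for which the share over all genes was not counted. In *bves* KO-EX against *bves* KO, 1 fell (*odc1*) and 0 rose, beside 1.64% of all genes called, 0.916% down and 0.721% up. Of the 9, 3 had an unadjusted p under 0.05, beside 15.3% of all, 3 passed DESeq2, beside 4.65% of all, and 2 did not overlap (*odc1*, *azin1b*), beside 23.0%. The signs of the 9 log2 fold changes split 4 positive to 5 negative, 4 to 5 and 5 to 4 in these comparisons. Their medians were −0.01, −0.35 and 0.06, beside −0.03, 0.01 and 0.01 over all tested genes. Without *bves* KO-EX replicates 1 and 3 no member passed in either comparison of that group, in which only 52 and 5 genes of all those tested then passed.

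Per gene length, the order of the 10 genes changed between groups. *oaz1a* was the most abundant everywhere, at 336 ± 20.4 TPM in WT fish, 220 ± 21.9 TPM in *bves* KO and 197 ± 4.54 TPM in *bves* KO-EX (SD, n = 3), without overlap with the next gene. *smox* was the sixth gene in WT at 8.77 ± 1.81 TPM, the fourth in *bves* KO at 26.7 ± 6.94 TPM and the second in *bves* KO-EX at 41.4 ± 3.13 TPM. In WT *smox* overlapped *odc1* below it but not *sms* above it, and in *bves* KO-EX it overlapped *oaz1b* below it at 36.7 ± 6.31 TPM. In *bves* KO (19.51 to 33.36 TPM) it overlapped *azin1b* above it (26.07 to 32.31 TPM) and *amd1* below it (15.43 to 29.2 TPM). *odc1* stood at 6.53 ± 1.73 TPM in WT, 6.82 ± 2.54 TPM in *bves* KO and 1.97 ± 1.26 TPM in *bves* KO-EX, where it overlapped its neighbours *azin1a* and *srm*. *srm* was the lowest in all groups, at 1.20 ± 0.0971, 0.747 ± 0.142 and 1.103 ± 0.394 TPM.

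**Figure D3:**
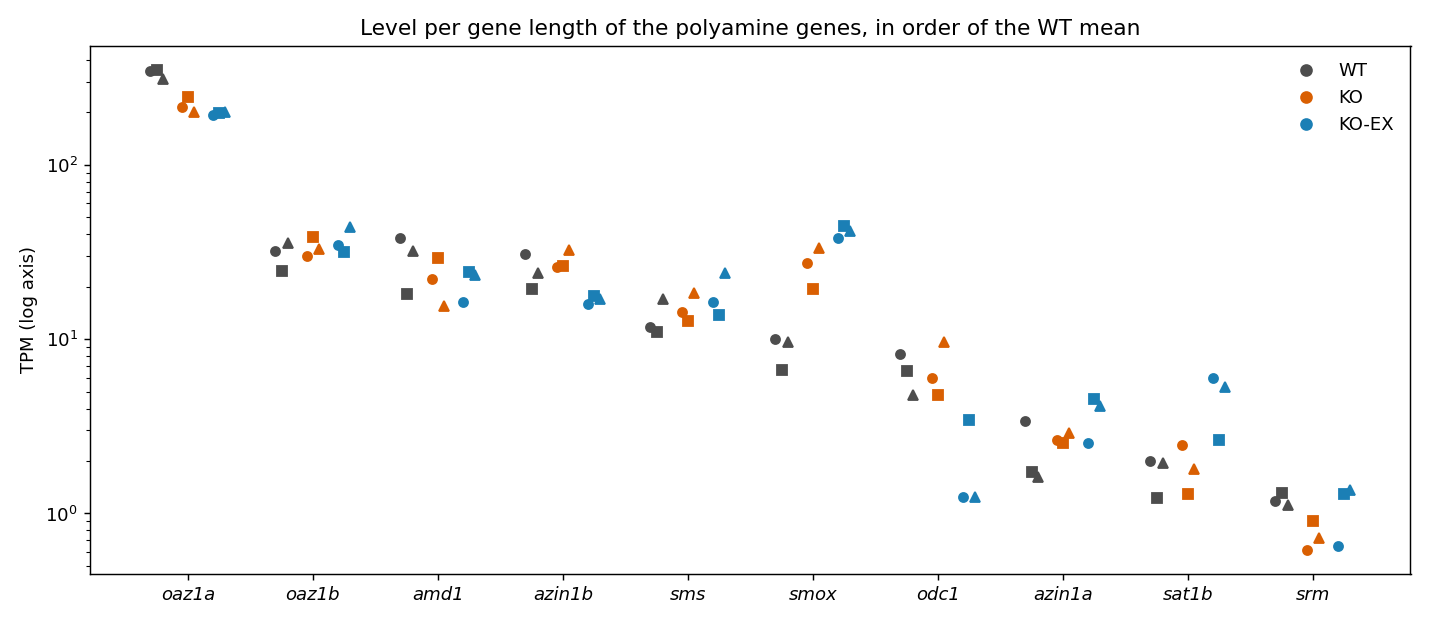
Level per gene length of the 10 genes in every library, in TPM on a log axis, ordered by the WT mean, with the groups in colour and the replicates 1, 2 and 3 as circle, square and triangle. *oaz1a* lies above all others in each group, *smox* moves from 8.77 TPM in WT to 41.4 TPM in *bves* KO-EX, and *odc1* moves to 1.97 TPM.

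*smox* and *odc1* went apart, and their ratio spread widely. In TPM, the ratio of *smox* to *odc1* took values of 1.22, 1.01 and 2.02 for WT, 4.53, 4.08 and 3.45 for *bves* KO and 30.7, 12.9 and 33.8 for *bves* KO-EX. No group overlapped another, and replicate 2 was the lowest of the *bves* KO-EX libraries. The ratio of *smox* to *sms*, the enzymes that break down and make spermine, was 0.678 ± 0.152 for WT, 1.75 ± 0.189 for *bves* KO and 2.43 ± 0.725 for *bves* KO-EX (SD, n = 3). For the *smox* to *sms* ratio *bves* KO (1.54 to 1.898) and *bves* KO-EX (1.759 to 3.199) overlapped. These ratios contain the *smox* level by which the set was chosen and carry no test.

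Other genes of polyamine supply, breakdown, use and transport were taken from 6 lists with 47 names, of which 40 were found, as 41 gene IDs. Of these, 35 passed the low-count filter and *sat2a* and *arg1* had 0 counts in every library. In *bves* KO against WT 0 of 35 passed edgeR, beside 1.11% of all genes, with 9 at an unadjusted p under 0.05 (16.9% of all genes) and 2 by DESeq2 (4.77% of all), and the signs split 15 positive to 20 negative. In *bves* KO-EX against WT 2 rose and 0 fell (5.39% of all genes passed), with 8 at an unadjusted p under 0.05 (25.1% of all) and 6 by DESeq2 (11.8% of all). Against *bves* KO 1 rose and 1 fell (1.64% of all genes passed), with 5 at an unadjusted p under 0.05 (15.3% of all) and 2 by DESeq2 (4.65% of all). The median log2 fold changes were −0.13, −0.12 and −0.10, a little below the medians of all genes given above. No gene of the other antizymes, of ornithine supply, of S-adenosylmethionine supply and methionine salvage or of hypusination passed by edgeR, in 2, 4, 10 and 4 tested genes. DESeq2 called 4 genes of these lists in *bves* KO-EX against WT, and they are named for that after their values were seen. They are *agmat*, whose product makes putrescine from agmatine (log2 fold change 1.22, DESeq2 adjusted p = 0.0373), the S-adenosylmethionine synthetase gene *mat1a* (−1.95, 0.0373), and *dohh* and *eif5a*, described below. Counts were low, at 12 to 21 in WT and 39 to 51 in *bves* KO-EX for *agmat*, and 34 to 61 and 5 to 21 for *mat1a*. Another synthetase gene, *mat2aa*, had a WT mean of 23.45 TPM against 0.943 TPM for *mat1a*. The log2 fold change of *mat2aa* in *bves* KO-EX against WT was −0.459 (edgeR adjusted p = 0.303). DESeq2 also called *agmat* in *bves* KO against WT (adjusted p = 0.0346). With replicate 2 alone, *agmat* was at 0.95 (edgeR adjusted p = 0.405) and *mat1a* at −2.05 (0.324) against WT.

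Of the edgeR calls, 3 were in the list of transport genes, in which 8 were tested. Of the 8, 2 rose in *bves* KO-EX against WT and 1 against *bves* KO, beside 5.39% and 1.64% of all genes called. *slc3a2a* (ENSDARG00000036427) encodes the heavy chain of amino acid exchangers, which in mammalian cells also takes part in polyamine export. It had 2.59, 2.49 and 2.08 CPM in WT, 4.08, 3.29 and 4.25 CPM in *bves* KO and 5.34, 5.25 and 4.95 CPM in *bves* KO-EX. The 3 groups did not overlap in CPM, and in *bves* KO-EX it rose by 1.12 on the log2 scale against WT (SE 0.214, edgeR adjusted p = 0.0201). In TPM WT (0.83 to 1.74 TPM) and *bves* KO (1.56 to 2.19 TPM) overlapped. *atp13a2* (ENSDARG00000061890), in humans a lysosomal polyamine exporter, had 2.16, 1.51 and 1.92 CPM in WT, 3.22, 3.63 and 2.83 CPM in *bves* KO and 3.17, 4.74 and 4.89 CPM in *bves* KO-EX. It rose by 1.18 on the log2 scale against WT (SE 0.262, edgeR adjusted p = 0.0300), and both knockout groups lay above WT. *gpc1b* (ENSDARG00000090585), a copy of the heparan sulfate proteoglycan glypican-1 through which mammalian cells take up polyamines, had 1.97, 1.05 and 2.23 CPM in WT, 1.02, 0.923 and 1.25 CPM in *bves* KO and 4.67, 2.91 and 2.72 CPM in *bves* KO-EX. It rose by 1.68 against *bves* KO (SE 0.353, edgeR adjusted p = 0.0433). These are low levels, and with *bves* KO-EX replicate 2 alone the adjusted p of edgeR was 0.176 for *slc3a2a*, 0.147 for *atp13a2* and 0.322 for *gpc1b*, with log2 fold changes of 1.12, 1.31 and 1.43. The *slc3a2a* call was also lost without WT replicate 1 (edgeR adjusted p = 0.0565), *bves* KO-EX replicate 1 (0.0621) or replicate 3 (0.0657). That of *atp13a2* was lost without WT replicate 1 (0.0702), WT replicate 2 (0.0771), *bves* KO replicate 1 (0.0554), *bves* KO-EX replicate 2 (0.0701) or replicate 3 (0.107). That of *gpc1b* was lost without WT replicate 1 (0.0658), any 1 *bves* KO library (0.106 to 0.170) or any 1 *bves* KO-EX library (0.0672 to 0.133). The counts over all genes in such fits are given above with *odc1*. The other heavy chain copy, *slc3a2b*, did not follow *slc3a2a* and was more abundant per gene length. Group means were 32.15, 29.5 and 23.78 TPM for *slc3a2b* and 1.207, 1.95 and 2.743 TPM for *slc3a2a*. In *bves* KO-EX the log2 fold change of *slc3a2b* was −0.508 against WT and −0.375 against *bves* KO (edgeR adjusted p = 0.366 and 0.672), with overlapping groups.

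Among breakdown genes, *sat1a.2* (ENSDARG00000095908), another zebrafish copy of SAT1, was the only one to pass. It had 15.0, 19.3 and 15.6 CPM in WT, 32.4, 29.2 and 28.8 CPM in *bves* KO and 16.8, 15.2 and 10 CPM in *bves* KO-EX. *bves* KO stood above both other groups, which overlapped. *sat1a.2* fell by 1.11 on the log2 scale in *bves* KO-EX against *bves* KO (SE 0.213, edgeR adjusted p = 0.0324). In *bves* KO against WT its log2 fold change was 0.86 (SE 0.212), which did not pass edgeR (adjusted p = 0.0853) and passed DESeq2 (adjusted p = 0.0127). Replicate 2 alone gave −1.005 on the log2 scale against *bves* KO (edgeR adjusted p = 0.247). The call was lost without any 1 of the *bves* KO libraries (edgeR adjusted p = 0.137, 0.0637 and 0.107 for replicates 1, 2 and 3) or any 1 of the *bves* KO-EX libraries (0.0590, 0.0626 and 0.106). Over all genes 243 passed in this comparison with all 9 libraries. In these fits 20, 150 and 35 passed without a *bves* KO library and 73, 103 and 46 without a *bves* KO-EX library. Per gene length *sat1a.2* was more abundant than *sat1b*, with means of 12.33, 24.15 and 11.52 TPM in WT, *bves* KO and *bves* KO-EX. Those of *sat1b* were 1.723, 1.853 and 4.637 TPM. *sat1b* and *sat1a.2* were not tested against each other. *PAOX*, the oxidase of acetylated polyamines, is listed as 2 gene models whose reads may be shared, and its summed counts were 82 to 125 in WT libraries, 77 to 101 in *bves* KO libraries and 100 to 155 in *bves* KO-EX libraries.

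Hypusination, the transfer of part of spermidine to the translation factor eIF5A, is the best known use of spermidine. Of its 4 tested genes, *eif5a* and *dohh*, chosen for mention after their values were seen, had the lowest log2 fold changes in *bves* KO-EX against WT. For *eif5a* that was −1.24 (SE 0.348, edgeR adjusted p = 0.0631, DESeq2 adjusted p = 0.00466) and for *dohh*, the hydroxylase that completes hypusine, −1.08 (SE 0.293, edgeR adjusted p = 0.0568, DESeq2 adjusted p = 0.0125). Neither passed edgeR and both passed DESeq2. With replicate 2 alone they were −1.13 (edgeR adjusted p = 0.359) and −0.77 (0.407). *eif5a* ran from 675 to 1794 CPM in WT, 529 to 683 CPM in *bves* KO and 417 to 516 CPM in *bves* KO-EX, and its highest value was in WT replicate 2. *dohh* ran from 20.25 to 45.04 CPM in WT and from 11.84 to 19.69 CPM in *bves* KO-EX. In TPM these 2 groups of *dohh* overlapped (20.58 to 38.27 and 10.89 to 22.73 TPM).

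**Figure D4:**
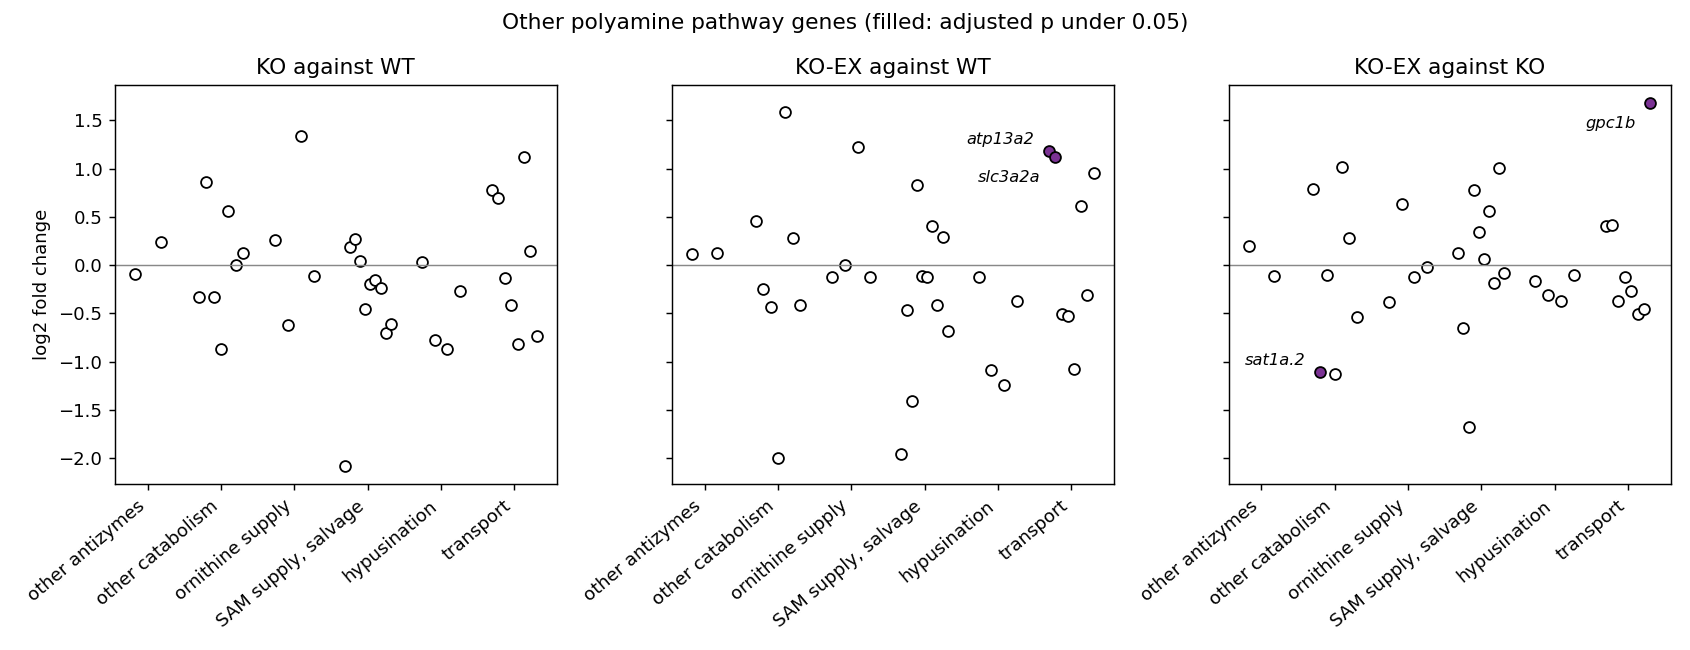
Log2 fold change of the 35 tested genes of the 6 other polyamine lists, by list, in the 3 comparisons. Points are genes spread sideways for visibility, and filled, named points passed an edgeR adjusted p under 0.05. No point is filled in *bves* KO against WT, and the named points are *atp13a2* at 1.18, *slc3a2a* at 1.12, *gpc1b* at 1.68 and *sat1a.2* at −1.11.

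The genes whose log2 CPM was most like that of *smox* were ranked by Pearson's r over the 9 libraries, among 12483 genes with a symbol and a mean of at least 1 CPM. They were *dpysl3*, a cytoskeleton-associated phosphoprotein gene (r = 0.979), *slc3a2a* (r = 0.9754), *clu*, which encodes the extracellular chaperone clusterin (r = 0.974), *col6a2*, a collagen VI chain (r = 0.973), and *col1a1b*, a collagen I chain (r = 0.970). These values describe a shared order of the 3 groups in the same libraries, and 9 libraries in 3 separate groups give no test. *dpysl3* had 15.1, 13.9 and 13.1 CPM in WT, 24.4, 23.9 and 24.3 CPM in *bves* KO and 31.1, 32.0 and 34.7 CPM in *bves* KO-EX. *col1a1b* had 113, 154 and 109 CPM in WT, 254, 236 and 408 CPM in *bves* KO and 351, 463 and 466 CPM in *bves* KO-EX. Of the 9 other members of the set, *azin1a* came nearest (r = 0.907) and *oaz1a* was the most opposed (r = −0.820).

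The summed level of connective tissue markers moved in the same order as *smox*, though not every marker did. The summed level of 5 fibroblast and connective tissue genes (*col1a1a*, *col1a2*, *dcn*, *lum*, *fn1a*) was 290, 374 and 308 CPM in WT, 555, 603 and 862 CPM in *bves* KO and 756, 1071 and 1065 CPM in *bves* KO-EX. Both knockout groups lay above WT and overlapped each other. By gene, *lum* overlapped between all groups (17.22 to 18.45 CPM in WT, 16.36 to 23.01 in *bves* KO, 11.17 to 24.52 in *bves* KO-EX). *dcn* in *bves* KO-EX (78.49 to 142.6 CPM) overlapped both WT (58.43 to 81.94) and *bves* KO (84.54 to 102.5). None of the 5 was at 0 in any library. Against WT, 1 of them rose in *bves* KO (*col1a1a*), beside 1.11% of all genes called. In *bves* KO-EX 3 rose against WT (*col1a1a*, *col1a2*, *fn1a*), beside 5.39% of all. None of these markers passed between the knockout groups, beside 1.64% of all. Their part in the *smox* result was not tested. Within the groups the order differed, since *bves* KO-EX replicate 1 had the lowest marker sum of its group and a *smox* level of 81.8 CPM, and *bves* KO replicate 1 had the lowest sum and *bves* KO replicate 2 the lowest *smox*. Summed endothelial markers were also higher in *bves* KO (275 to 340 CPM) than in WT (200 to 270 CPM) and overlapped both in *bves* KO-EX (191 to 297 CPM). By gene, *kdrl* and *pecam1* lay above WT in every *bves* KO library, while *cdh5*, *tie1* and *fli1a* overlapped WT. None of these 5 endothelial genes passed in any comparison. Epidermal markers summed to 131 to 240 CPM in WT, 125 to 168 CPM in *bves* KO and 509.5, 298 and 152 CPM in *bves* KO-EX. By gene, *krt5* and *cldni* in *bves* KO-EX lay above every *bves* KO library, while *krt4*, *krt91* and *epcam* overlapped *bves* KO. None of these epidermal genes passed in any comparison, and their part in the other results was not tested. Liver markers summed to 1.03 to 6.02 CPM over all libraries.

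**Figure D5:**
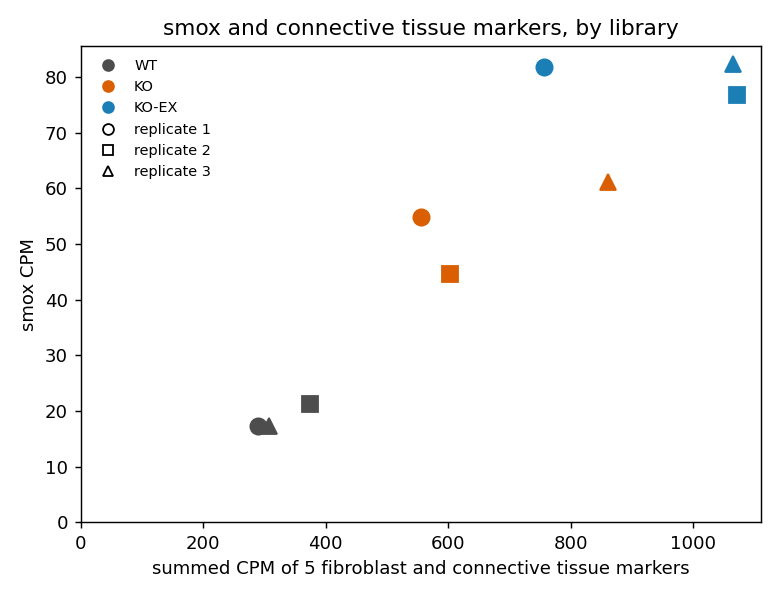
*smox* level against the summed level of 5 fibroblast and connective tissue markers, both in CPM, 1 point per library with colour for the group and shape for the replicate. WT libraries lie at 290 to 374 and 17.4 to 21.3 CPM, and the knockout groups overlap on the marker axis (555 to 862 and 756 to 1071 CPM) but not on the *smox* axis.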

How the data were processed

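RNA sequencing of 9 muscle libraries was analysed, grouped by the sample labels. The authors deposited estimated counts, not normalized, and TPM values, which the authors scaled for gene length and depth. The submitters' processing notes list fastp, HISAT2, StringTie and RSEM, with no role or version. The build, the annotation and whether counting used strand are not given in the sources used here, so no coordinates are given. Columns with the authors' fold changes and p-values were not used. The *bves* KO libraries are in both tables, and 0 values differed.

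Counts were rounded and tested with edgeR 4.0.16 in R 4.3.3 (filterByExpr, TMM, robust quasi-likelihood test on all 9 libraries, two-sided, Benjamini-Hochberg over 14849 genes, adjusted p under 0.05). Intervals are 95% and p-values measure only the spread between these libraries. Common BCV was 0.295, and replicates within a group were not repeats of 1 library (their chi-square statistic was 23.7 to 119 times its degrees of freedom). Levels between genes are compared in TPM only.

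Members and lists were chosen with earlier results of these data known. Named genes are the 10 members, *bves*, the genes of the other lists that passed, and the 5 genes most like *smox*, with exceptions marked. Names were matched with letter case ignored. In a gene name table, 6 of 10 member IDs carried the same symbol and 4 the symbol without its copy letter. Alternatives were DESeq2 1.42.0, limma 3.58.1 on log2(TPM + 0.5), other scalings and filters, a replicate block, fits of 6 libraries, stricter thresholds and libraries left out. A fit with 1 *bves* KO-EX library assumes that it varies like the other groups.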

Additional observations from a re-analysis of the deposited data

How the results depend on the processing

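*smox* kept its direction in every comparison under all alternatives (log2 fold change at least 1.42, 2.02 and 0.47). The set was selected on the level of *smox* in *bves* KO-EX, so these values are a description and carry no test. No member passed in *bves* KO against WT under any alternative. In *bves* KO-EX against WT, where 3 passed, 1 passed with total-count scaling, with the replicate block (*odc1*), with only the 6 libraries compared or with a fold change above 2 as well. There 5 passed by DESeq2 (which called 11.8% of all genes) and 0 passed with limma on TPM (chosen after seeing the data), at an adjusted p under 0.01 or without *bves* KO-EX replicates 1 and 3. With at least 10 counts in every library 4 passed, with *sat1b* added. With no low-count filter 3 passed, with *sat1b* in place of *azin1b*. With 1 library left out, 0 to 3 passed. Over all genes 801 passed with all 9 libraries in this comparison. That count was 411 with total-count scaling, 615 with the replicate block, 317 with only the 6 libraries and 272 with limma. It was 745 with at least 10 counts and 787 with no low-count filter. In *bves* KO-EX against *bves* KO, where 1 passed, 0 passed with total-count scaling, the replicate block, limma, an adjusted p under 0.01 or without *bves* KO-EX replicates 1 and 3. There 2 passed with at least 10 counts in every library, 3 by DESeq2 (4.65% of all genes) and 0 to 2 with 1 library left out. Over all genes 243 passed with all 9 libraries in this comparison. That count was 109 with total-count scaling, 147 with the replicate block, 30 with limma and 277 with at least 10 counts. The cause of these changes was not tested. Total-count scaling moved the median of all genes to 0.11 in both *bves* KO-EX comparisons. Same-numbered libraries did not deviate together (correlations −0.281 to 0.156), so the replicate numbers were not taken as pairs.

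Signs turned for values that did not pass, and not all of them were near 0. In the fit on all 9 libraries, *sms* in *bves* KO-EX was 0.315 against WT and 0.227 against *bves* KO. In that fit *bves* was −0.374 in *bves* KO-EX against WT. In *bves* KO against WT, *odc1* was 0.033 with limma, *azin1b* 0.003 with total-count scaling, 0.007 with at least 10 counts and 0.206 with limma, and *sat1b* −0.023 with the replicate block. Without *bves* KO-EX replicates 1 and 3, *sms* was −0.264 against WT and −0.349 against *bves* KO, and *oaz1b* −0.255 and −0.317. With 1 library left out, the ranges in *bves* KO against WT were −0.369 to 0.188 for *odc1*, −0.104 to 0.208 for *sms*, −0.081 to 0.058 for *azin1b*, −0.083 to 0.178 for *oaz1b* and −0.215 to 0.191 for *sat1b*. In *bves* KO-EX against WT they were −0.025 to 0.283 for *oaz1b* and −0.677 to 0.055 for *bves*. Against *bves* KO they were −0.345 to 0.161 for *amd1*, −0.050 to 0.441 for *sms* and −0.088 to 0.213 for *oaz1b*.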
